A study of Homo sapiens with 24 samples.

Results

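The question here was which genes lost or gained their difference between Aldefluor+ and Aldefluor- SUM159 cells when the cells received ID8. SUM159 is a triple-negative human breast cancer line with mesenchymal features. The Aldefluor reagent fluoresces in cells with high aldehyde dehydrogenase (ALDH) activity, and the submitters take Aldefluor+ cells as cancer stem cells. All 12 SUM159 arrays of the 24 in the series were used, in 4 groups of 3: Aldefluor- and Aldefluor+ cells after 72 hours with DMSO, the vehicle, and the same fractions after 72 hours with 5 µM of the small molecule ID8. Experiments 2, 3 and 4 each gave 1 array to each group. The other 12 arrays hold the same groups of T47D, a luminal, oestrogen-receptor-positive breast cancer line, from experiments 5, 6 and 7.

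The labels name no allele, transgene or further agent, and each treatment was a pool of 3 flasks before sorting. The Aldefluor+ gate was set so that 0.1% of events entered it in a tube with DEAB, which inhibits the reaction. All groups went through this sort and an amplification from 10 ng of RNA. Values are log2 signals that the authors had adjusted for batch, so a difference of 1 is a doubling of signal and levels are not compared between genes. The interaction is the ID8 response (ID8 minus DMSO) in Aldefluor+ cells minus the ID8 response in Aldefluor- cells, which equals the Aldefluor+ minus Aldefluor- difference with ID8 minus that with DMSO. It was computed within each experiment and tested with limma over 22395 genes. A gene was called at a Benjamini-Hochberg adjusted p under 0.05. Errors are SE of the fit unless marked SD. The fit took the arrays of both lines, so each gene's SE and p-value rest on 1 spread pooled over experiments 2 to 7, T47D included.

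On the arrays all 10 mesenchymal markers read higher in SUM159 than in T47D, and all 13 luminal markers read higher in T47D. Some gaps were small, as for TWIST1 (1.427 in SUM159, 1.375 in T47D) and KRT8 (3.074 and 3.158). Others were wider, as for MSN (5.765 and 4.779). No experiment held both lines, so the batch adjustment may have changed these gaps. Of the genes tested, 10126 (45.2%) lay below 2 in all 4 SUM159 groups, a low level where signal over background is small. Endothelial and leucocyte markers were mostly at that level: of 8 and 9 measured, at most 1 and 2 reached 2 in any SUM159 group. The interquartile range of signals was 2.05 on the array of DMSO-treated Aldefluor+ cells of experiment 4 and 2.18 to 2.30 on the other SUM159 arrays. In these bulk samples, fewer cells of a type and less RNA per cell cannot be told apart. From the collected cells and RNA in the labels, RNA per cell was 10.6 ± 1.31 pg (SD, n = 3) in Aldefluor- and 12.9 ± 0.173 pg in Aldefluor+ cells with DMSO. With ID8 it was 12.7 ± 2.17 pg and 14.3 ± 1.79 pg. The log2 interaction of RNA per cell was 0.10, -0.39 and -0.06 in experiments 2, 3 and 4, so it had no common direction, and an exact sign-flip test of 3 values cannot give a two-sided p below 0.25.

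As background, the co-activators YAP and TAZ pass from cytoplasm to nucleus in spread, tense cells and act there through TEAD DNA-binding proteins. Textbook targets include ANKRD1, CCN1 and CCN2. Another tension-linked route runs through actin, the co-activator MRTF and the factor SRF to contractile genes such as MYL9 and ACTA2, and TGF-beta signalling feeds both. ID8 is described as an inhibitor of DYRK family kinases.

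Promoter sequences are shown for ANKRD1, the only called gene, and for THBS1, an uncalled gene on the same side of 0. EPGN is shown for the other side, where it had the smallest p. THBS1 did not have the smallest p of the uncalled genes on its side. Each line gives the 250 bases before the RefSeq transcript start, 5′ to 3′ on the gene's strand, from assembly GRCh38.p14. Capitals mark the TEAD recognition letters GGAATG (or CATTCC, the other strand), the AP-1 letters TGANTCA and the TATA letters TATAAA (or TTTATA). ANKRD1 lies at chr10:90921088-90921337 on the minus strand, THBS1 at chr15:39580829-39581078 on the plus strand and EPGN at chr4:74308220-74308469 on the plus strand.
ANKRD1: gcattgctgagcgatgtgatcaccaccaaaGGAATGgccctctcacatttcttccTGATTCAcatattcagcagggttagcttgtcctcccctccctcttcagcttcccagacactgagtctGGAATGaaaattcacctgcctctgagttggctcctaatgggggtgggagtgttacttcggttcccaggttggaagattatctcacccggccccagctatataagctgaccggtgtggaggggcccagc
THBS1: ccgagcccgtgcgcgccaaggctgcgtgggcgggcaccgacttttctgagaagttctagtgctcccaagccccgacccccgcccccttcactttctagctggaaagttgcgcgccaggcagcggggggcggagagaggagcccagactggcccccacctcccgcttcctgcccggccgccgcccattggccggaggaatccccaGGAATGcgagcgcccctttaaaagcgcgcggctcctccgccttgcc
EPGN: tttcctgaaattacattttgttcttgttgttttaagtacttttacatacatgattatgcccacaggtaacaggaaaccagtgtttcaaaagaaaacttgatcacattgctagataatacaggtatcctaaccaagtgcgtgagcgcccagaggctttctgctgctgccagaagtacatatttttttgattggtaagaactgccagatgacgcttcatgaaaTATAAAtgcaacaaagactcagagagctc
ANKRD1 held GGAATG at 220 and 128 bases before the start and an AP-1 match, TGATTCA, at 195 bases. THBS1 held GGAATG at 46 bases and EPGN held TATAAA at 29 bases. SEMA3C, which had the smallest p of the uncalled genes named below 0, is not shown and held none of these letters. Of 35116 promoter windows in the table, 11.9% held the TEAD letters, 6.57% the AP-1 letters and 10.7% the TATA letters. Promoters of 17 of the 25 genes named for their interaction below were in the table, and 5, 1 and 1 of them held these letters. The 5 with TEAD letters were ANKRD1, THBS1, CADM3, HARBI1 and TCF4, and HARBI1 is on the opposite side of 0 from the other four. A match describes the letters and does not show binding.

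ANKRD1, a YAP/TAZ-regulated ankyrin repeat protein of muscle and stressed cells, lost its fraction difference with ID8. Its signal was 1.58, 1.61 and 1.53 in Aldefluor- cells with DMSO in experiments 2, 3 and 4, and 3.63, 3.83 and 3.49 in Aldefluor+ cells with DMSO. With ID8 it was 4.64, 4.92 and 4.79 in Aldefluor- cells and 4.03, 4.36 and 4.62 in Aldefluor+ cells. The DMSO-treated Aldefluor- cells stood alone at a low level, where background can make a fold change look smaller than it is. The fractions did not overlap with DMSO, where Aldefluor+ cells were higher, nor with ID8, where the highest Aldefluor+ array lay just below the lowest Aldefluor- array. Thus Aldefluor+ cells were 4.21-fold higher with DMSO (log2 2.07 ± 0.187, limma adjusted p = 7.17e-05). With ID8 the difference was -0.44 ± 0.187 and did not pass (adjusted p = 0.583). ID8 raised ANKRD1 9.23-fold in Aldefluor- cells (log2 3.21 ± 0.187, adjusted p = 2.26e-07). In Aldefluor+ cells it was 1.61-fold higher with ID8, which did not pass (log2 0.69 ± 0.187, adjusted p = 0.16). The interaction was -2.52 ± 0.264, with -2.66, -2.77 and -2.13 in experiments 2, 3 and 4 (limma adjusted p = 0.00121, n = 3 experiments).

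ANKRD1 was the only gene called in the interaction, 1 of 22395 or 0.00447%, and it was on the lower side. No gene was called higher. At an unadjusted p under 0.05, limma gave 1582 genes (7.06%), 777 higher (3.47%) and 805 lower (3.59%). Without experiment 2 or 3 the ANKRD1 value was -2.45 or -2.39 and the call was lost (adjusted p = 0.158 or 0.297). Over all alternatives the adjusted p ranged from 4.37e-05 without the experiment block to 0.432 when the 3 per-experiment values alone were tested. Each SUM159 array left out in turn gave -2.69 to -2.39, and every such fit called it.

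**Figure D1:**
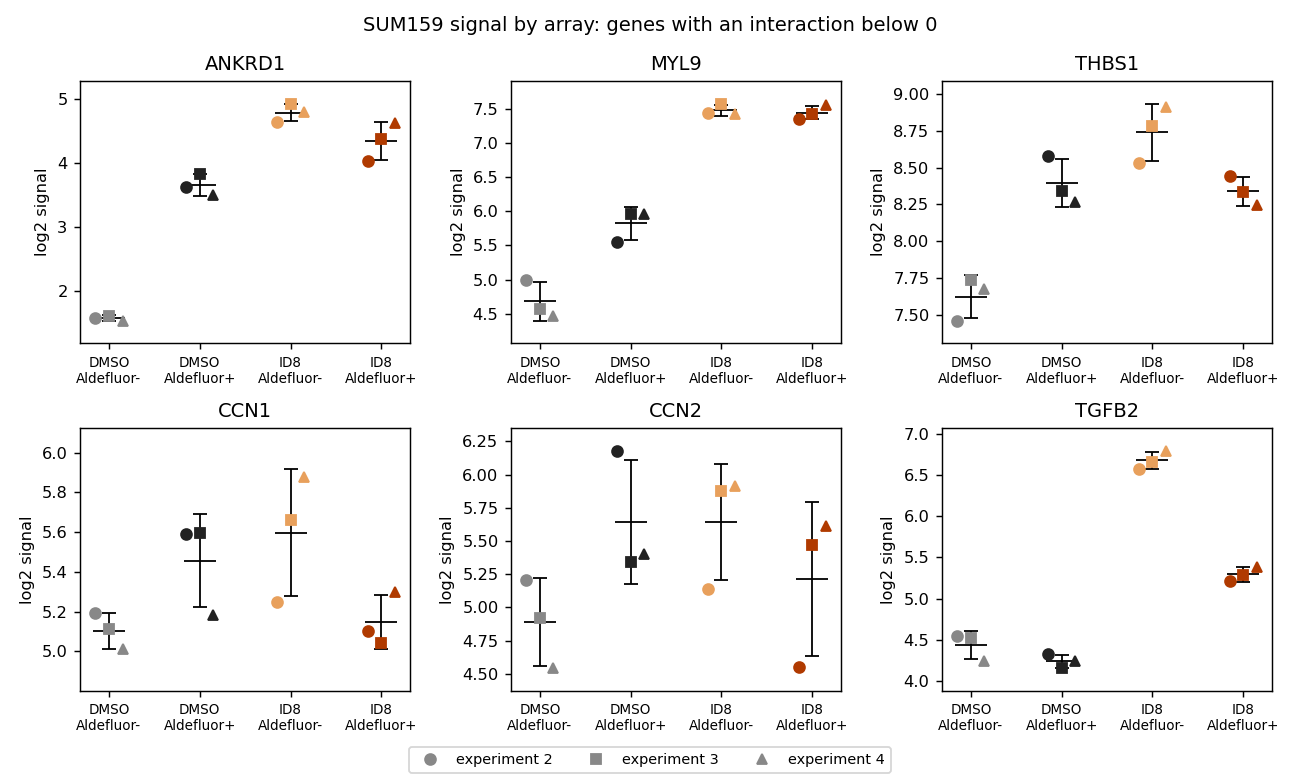
Log2 signal of 6 genes with an interaction below 0 on each of the 12 SUM159 arrays. Columns are the 4 groups, marker shapes are experiments 2, 3 and 4, and horizontal bars with whiskers are means ± SD (n = 3). ANKRD1 was near 1.58 in DMSO-treated Aldefluor- cells and between 3.49 and 4.92 in the other groups.

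No other member of the YAP/TAZ list was called, but most lay on the same side. Of 25 members measured, 21 had an interaction below 0 and 4 above, against 11162 of 22395 genes below and 11233 (50.2%) above. The list's median was -0.21, with -0.36, -0.43 and -0.03 in experiments 2, 3 and 4, and the median of all genes was 0.00123. Those with an unadjusted p under 0.05 were 6 members, all lower: ANKRD1, NUAK2, TGFB2, CCN2, CCN1 and CRIM1. Beyond the 2 highest and 2 lowest members of each list, genes named from lists here and below were picked after their values were seen.

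CCN1, a secreted matrix protein and YAP target, read 5.19, 5.11 and 5.01 in Aldefluor- and 5.59, 5.59 and 5.18 in Aldefluor+ cells with DMSO. After ID8 it read 5.25, 5.66 and 5.88 in Aldefluor- and 5.10, 5.04 and 5.30 in Aldefluor+ cells. So Aldefluor+ cells were the higher fraction within each experiment with DMSO and the lower within each experiment with ID8, although the group ranges overlapped. Its interaction was -0.80 ± 0.234 (limma adjusted p = 0.538). CCN2, the related connective tissue growth factor, had an interaction of -1.19 ± 0.484 (adjusted p = 0.658). It read 5.20, 4.92 and 4.55 in Aldefluor- and 6.18, 5.34 and 5.40 in Aldefluor+ cells with DMSO, with no overlap. After ID8 it read 5.14, 5.88 and 5.92 in Aldefluor- and 4.55, 5.47 and 5.62 in Aldefluor+ cells, so the group ranges overlapped, with Aldefluor+ cells the lower fraction within each experiment. NUAK2, a kinase that supports actomyosin tension, had -1.23 ± 0.358 (adjusted p = 0.538). At the other end LATS2, the Hippo kinase that restrains YAP and is itself a target, had 0.24 ± 0.253, and F3, tissue factor, had 0.19 ± 0.32.

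TGFB2, which encodes a TGF-beta ligand and is also in the YAP/TAZ list, was called in the fraction difference with ID8 and not in that with DMSO. The call with ID8 (adjusted p = 0.0437) was lost without experiment 2, 3 or 4 and without the DMSO-treated Aldefluor+ array of experiment 4. It read 4.55, 4.52 and 4.25 in Aldefluor- and 4.32, 4.16 and 4.24 in Aldefluor+ cells with DMSO, so the fractions overlapped. After ID8 it read 6.58, 6.66 and 6.79 in Aldefluor- and 5.21, 5.29 and 5.39 in Aldefluor+ cells, with no overlap. TGFB2 rose with ID8 in Aldefluor- cells (2.24 ± 0.244, limma adjusted p = 0.00034, a call lost without experiment 4). In Aldefluor+ cells it was 1.05 higher with ID8 and did not pass (adjusted p = 0.102). The interaction was -1.19 ± 0.345 (adjusted p = 0.538), so the change of the fraction difference itself was not called. Among 30 genes of TGF-beta ligands, receptors and targets, 21 lay below 0, with a median of -0.06. The median changed sign between experiments (-0.00493, -0.16 and 0.09). TGFBR3, the betaglycan co-receptor, had -0.80 ± 0.319. SKIL, a SMAD repressor, had 0.41 ± 0.153 and INHBB, an activin subunit, had 0.45 ± 0.398.

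Matricellular proteins, secreted regulators of cell-matrix contact, held several of the low values. Of 25 measured, 15 lay below 0, with a median of -0.09. At an unadjusted p under 0.05, 6 were lower: CCN2, THBS1, EDIL3, CCN4, CCN1 and FSTL1. Of these, CCN1 and CCN2 were also counted in the YAP/TAZ list. Only 1 was higher, SMOC2, which lay below 2 in all 4 SUM159 groups. For this list and those below, the matching figures over all genes are 11162 of 22395 below 0 and 3.59% lower at that threshold. THBS1, thrombospondin-1, read 7.46, 7.74 and 7.67 in Aldefluor- and 8.58, 8.34 and 8.27 in Aldefluor+ cells with DMSO. After ID8 it read 8.53, 8.78 and 8.91 in Aldefluor- and 8.44, 8.33 and 8.24 in Aldefluor+ cells. The fractions did not overlap under either treatment and changed order. THBS1 rose with ID8 in Aldefluor- cells (1.12 ± 0.146, adjusted p = 0.00181, a call lost without experiment 3 or 4) and stood at -0.06 ± 0.146 in Aldefluor+ cells. Its interaction was -1.17 ± 0.206 (adjusted p = 0.12), called only under the trended, robust prior and without the experiment block.

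EDIL3, an integrin-binding matrix protein, rose with ID8 in both fractions. It read 1.54 to 1.70 in Aldefluor- and 1.67 to 1.73 in Aldefluor+ cells with DMSO, and 3.47 to 3.98 and 2.48 to 3.10 with ID8. The rise was 2.16 ± 0.184 in Aldefluor- cells and 1.04 ± 0.184 in Aldefluor+ cells (adjusted p = 1.66e-05 and 0.029). The call in Aldefluor+ cells was lost without any 1 of the 3 experiments or the DMSO-treated Aldefluor+ array of experiment 4. The interaction was -1.11 ± 0.261 (adjusted p = 0.347). FSTL1, a secreted follistatin-like glycoprotein, fell with ID8 in Aldefluor+ cells (-0.80 ± 0.122, adjusted p = 0.0112, a call lost without any 1 experiment). In Aldefluor- cells it was 0.24 lower and did not pass.

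Contractile and stress-fibre genes lay low as well. Of 23 measured, 17 had an interaction below 0, 7 of them at an unadjusted p under 0.05, with none higher at that level, and the median was -0.21 (-0.37, -0.30 and -0.03 in experiments 2, 3 and 4). MYL9, a myosin light chain, read 5.00, 4.57 and 4.47 in Aldefluor- and 5.54, 5.97 and 5.96 in Aldefluor+ cells with DMSO. ID8-treated cells read 7.44, 7.58 and 7.43 in Aldefluor- and 7.36, 7.43 and 7.55 in Aldefluor+ cells. The fractions were apart with DMSO and overlapped at a higher level with ID8. MYL9 was higher in Aldefluor+ cells with DMSO (1.15 ± 0.173, adjusted p = 0.0338), a call lost without experiment 3 or 4 or without the DMSO-treated Aldefluor+ array of experiment 4. With ID8 the difference was -0.03 ± 0.173. It rose with ID8 in both fractions, by 2.80 in Aldefluor- and 1.62 in Aldefluor+ cells. Its interaction of -1.18 ± 0.245 was not called (adjusted p = 0.237).

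In Aldefluor- cells ID8 raised 5 contractile genes by the limma test, which called 0.188% of all genes as higher there: MYL9, ACTA2, MYLK, TAGLN and TPM1. Without experiment 3 or without experiment 4, the calls of ACTA2, MYLK, TAGLN and TPM1 were lost, those of MYLK and TPM1 also without experiment 2. In Aldefluor+ cells MYL9 was the only one called. ACTA2, smooth muscle actin, rose by 1.40 in Aldefluor- cells and was 0.69 higher in Aldefluor+ cells, an interaction of -0.71 ± 0.31 (adjusted p = 0.683). TAGLN, the actin-binding transgelin, had 1.39 and 0.91, and an interaction of -0.48 ± 0.335 that missed even the unadjusted threshold. TPM1, a tropomyosin, had 0.89 and 0.60, an interaction of -0.28 ± 0.232. The difference in calls between fractions is therefore not a tested difference for these genes. At the other end were MYH11, smooth muscle myosin heavy chain, at 0.33 ± 0.197 and SMTN, smoothelin, at 0.24 ± 0.216.

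**Figure D2:**
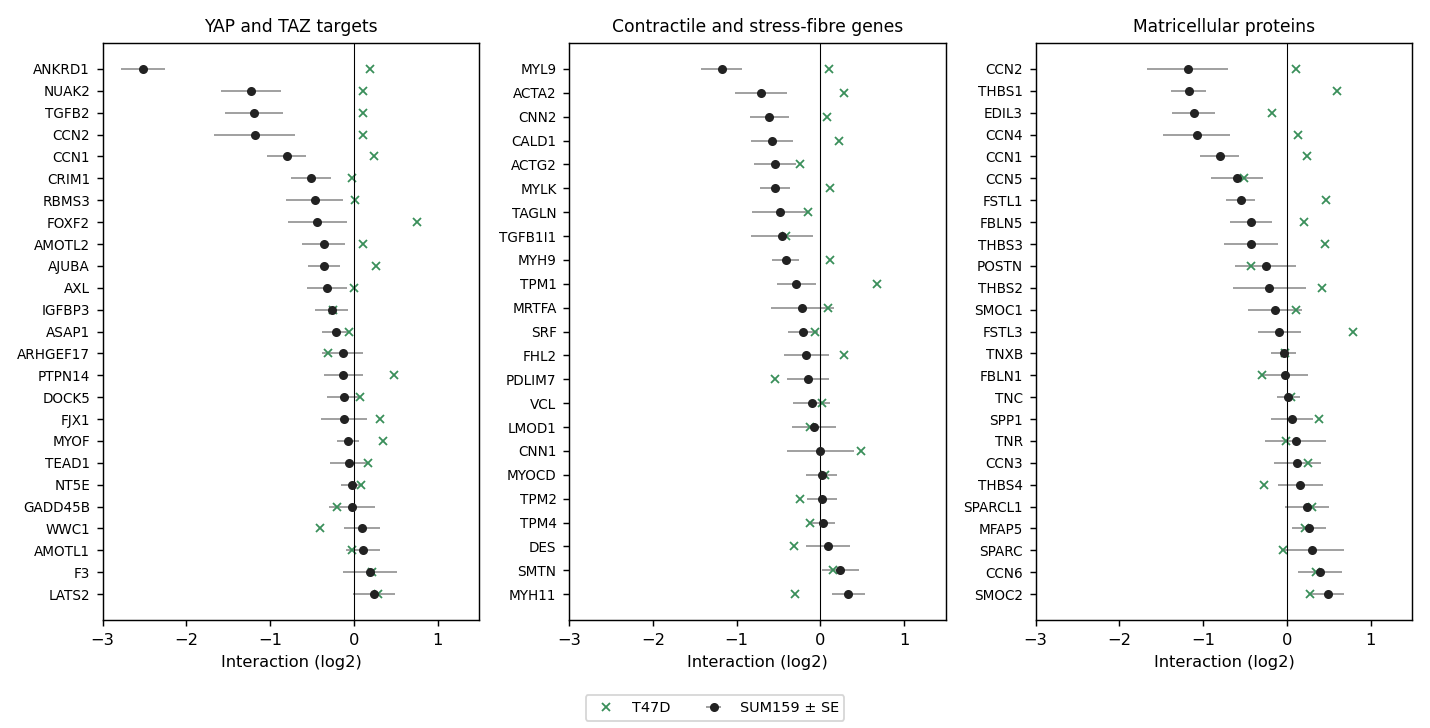
Interaction (log2) of every measured member of the YAP/TAZ, contractile and matricellular lists. Black points with bars are SUM159 ± SE (n = 3 experiments) and green crosses are the T47D interaction. ANKRD1 at -2.52 is the only called gene, and 21 of 25, 17 of 23 and 15 of 25 members lie below 0 in SUM159.

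The naming rule took, on each side of 0, the 12 uncalled genes with the smallest unadjusted p, not the largest values. Such genes had to have the same sign in all 3 experiments, as 6035 genes (26.9%) had, and a mean of at least 2 in a SUM159 group. Below 0 the 12 interactions ran from -2.08 to -0.73, with adjusted p between 0.12 and 0.305. All 12 had a fraction difference above 0 with DMSO and below 0 with ID8, and all 12 were higher with ID8 in Aldefluor- cells. The list was chosen on the interaction, which shares its arrays with these differences, so the counts are description only. It held THBS1 and MYL9 and further SEMA3C, SCG5, RIPOR2, CADM3, SMARCA1, RNF11, MAP2, ANKS1B, ACKR1 and TCF4.

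SEMA3C, a secreted guidance cue, read 7.45, 7.45 and 7.40 in Aldefluor- and 7.60, 7.46 and 7.48 in Aldefluor+ cells with DMSO, narrowly apart. ID8-treated cells read 7.53, 7.66 and 7.67 in Aldefluor- and 6.89, 6.88 and 6.95 in Aldefluor+ cells, which stood below all other groups. It fell with ID8 in Aldefluor+ cells (-0.60, adjusted p = 0.0138, a call lost without any 1 experiment). Its interaction was -0.79 ± 0.135 (adjusted p = 0.12), and it was called under the low-signal filter and under the trended, robust prior.

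SCG5, a neuroendocrine chaperone, read 2.87, 2.94 and 2.86 in Aldefluor- and 2.75, 2.98 and 3.01 in Aldefluor+ cells with DMSO. With ID8 it read 3.73, 4.03 and 4.10 in Aldefluor- and 2.87, 2.57 and 2.80 in Aldefluor+ cells. Only ID8-treated Aldefluor- cells stood apart, by 1.07 above DMSO (adjusted p = 0.00545, a call lost without experiment 3 or 4), and the interaction was -1.23 ± 0.224 (adjusted p = 0.12). RIPOR2, a regulator of the GTPase RHOA, had the lowest of these values, -2.08 ± 0.405 (adjusted p = 0.205). Its DMSO-treated Aldefluor+ arrays read 3.32, 3.17 and 2.18, and leaving out the last of these, experiment 4, gave -2.53 and a call (adjusted p = 0.0183). CADM3, a cell adhesion molecule of the immunoglobulin family, had -1.78 ± 0.353, and SMARCA1, a chromatin remodelling ATPase, had -1.09 ± 0.217.

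Above 0 the 12 interactions taken by the rule ran from 0.83 to 1.65, with adjusted p between 0.0651 and 0.305. All 12 had a fraction difference above 0 with ID8, 11 had one below 0 with DMSO, and none was higher with ID8 in Aldefluor- cells, counts that the choice by interaction largely fixes. Beyond EPGN and DSP they were TPTEP2, AADACP1, TIGD7, IGSF3, LRP2BP, HOXC-AS3, LACC1, PLCB1, HARBI1 and CCND2, the last a D-type cyclin that drives G1 progression. Of these, AADACP1, LRP2BP and CCND2 passed the filter at 2 only through ID8-treated Aldefluor+ cells. For them the filter thus also favoured a high value in that group. Their means in the other SUM159 groups were 0.77 to 1.96, where signal over background is small.

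EPGN, epigen, a ligand of the epidermal growth factor receptor, had the highest value of the 12. It read 3.88, 3.88 and 3.86 in Aldefluor- and 3.37, 2.95 and 3.09 in Aldefluor+ cells with DMSO. ID8-treated cells read 2.88, 2.85 and 2.81 in Aldefluor- and 3.56, 3.66 and 4.07 in Aldefluor+ cells. The fractions did not overlap under either treatment and changed order. EPGN fell with ID8 in Aldefluor- cells (-1.03 ± 0.176, adjusted p = 0.0188, a call lost without any 1 experiment) and was 0.63 higher in Aldefluor+ cells, which did not pass. The interaction was 1.65 ± 0.249 (adjusted p = 0.0651).

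DSP, desmoplakin, which ties desmosomes to keratin filaments, read 6.20, 6.20 and 6.06 in Aldefluor- and 6.45, 6.44 and 6.06 in Aldefluor+ cells with DMSO. With ID8 it read 5.55, 5.70 and 5.52 in Aldefluor- and 6.73, 6.69 and 6.72 in Aldefluor+ cells. The fractions overlapped with DMSO and were apart with ID8, by 1.13 ± 0.11 (adjusted p = 0.00022). DSP fell in Aldefluor- cells (-0.57, adjusted p = 0.0394, a call lost without any 1 experiment) and stood 0.40 higher in Aldefluor+ cells. Its interaction was 0.96 ± 0.155 (adjusted p = 0.0965). EPGN and DSP were both called after renewed quantile normalization, with the low-signal filter and with the trended, robust prior. Of 20 desmosome and epithelial junction genes measured, 11 lay above 0, the median was 0.00638, and besides DSP only DSC2 (0.38 ± 0.148) and PKP2 (0.43 ± 0.165), a desmosomal cadherin and a plakophilin, had an unadjusted p under 0.05.

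**Figure D3:**
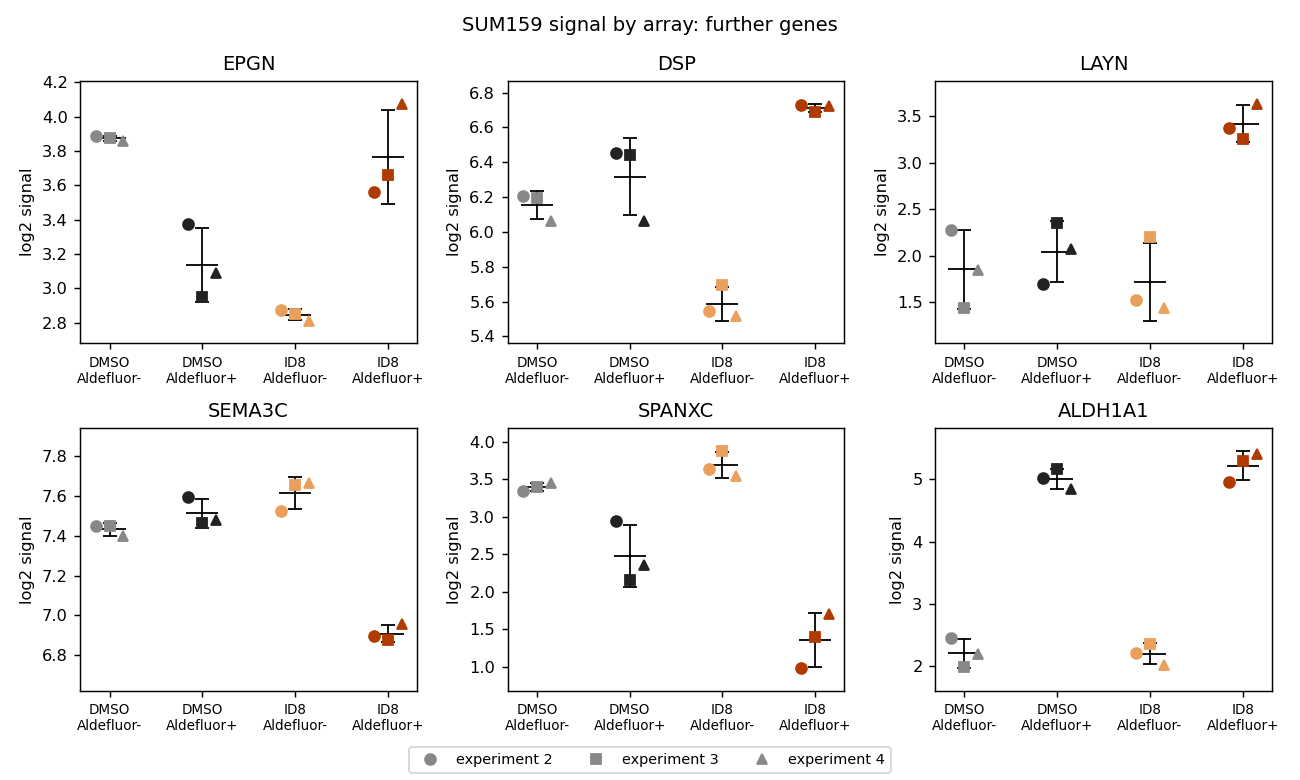
Log2 signal of EPGN, DSP, LAYN, SEMA3C, SPANXC and ALDH1A1 on each of the 12 SUM159 arrays, with means ± SD (n = 3) per group and marker shapes for experiments 2, 3 and 4. The ALDH1A1 fractions are apart with DMSO and with ID8, while those of LAYN overlap with DMSO and are apart with ID8, and those of SEMA3C are narrowly apart with DMSO and change order with ID8.

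Genes were next sorted by the fraction difference in each treatment, which share no arrays with each other but both enter the interaction. Aldefluor+ minus Aldefluor- called 5 genes with DMSO (0.0223% of those tested), all higher in Aldefluor+ cells, and 45 with ID8 (0.201%), 17 higher (0.0759%) and 28 lower (0.125%). Only ALDH1A1 was called in both. Called with DMSO alone were ANKRD1, NPR3, MYL9 and KIAA0040, and their median absolute difference was 1.35 with DMSO and 0.34 with ID8. Called with ID8 alone were 44 genes, with medians of 0.29 and 1.04. Such medians favour the treatment that made the call. Of these 44, none was called in the interaction, 32 had an unadjusted p under 0.05 and the lowest adjusted p was 0.0651, for EPGN. A call with one treatment and none with the other was thus shown to be a change for ANKRD1 alone.

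NPR3, a natriuretic peptide clearance receptor, read 3.88 to 4.19 in Aldefluor- and 5.13 to 5.91 in Aldefluor+ cells with DMSO. With ID8 it read 5.03 to 5.77 and 5.49 to 5.84, so the fractions came to overlap. Its difference was 1.55 with DMSO (adjusted p = 0.0311, a call lost without experiment 2 or 3) and 0.23 with ID8, an interaction of -1.32 ± 0.322 (adjusted p = 0.398). KIAA0040 kept the fractions in the same order, at 1.15 with DMSO and 0.75 with ID8, an interaction of -0.40 ± 0.256. Its DMSO call was lost without any 1 of the 3 experiments.

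Among genes called with ID8, the largest difference after ALDH1A1 was that of SPANXC, a cancer-testis antigen on the X chromosome. It read 3.35 to 3.45 in Aldefluor- and 2.15 to 2.95 in Aldefluor+ cells with DMSO, and 3.55 to 3.88 and 0.99 to 1.70 with ID8. Aldefluor+ cells were lower under both treatments, by 0.92 with DMSO, which did not pass, and by 2.33 with ID8 (adjusted p = 0.000378). The interaction was -1.41 ± 0.344 (adjusted p = 0.398). SPANX and PAGE genes have near-identical copies that a probe set may not separate. PAGE2B had -1.16 with DMSO and -2.22 with ID8, and the interaction was -1.06 ± 0.59.

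CCN4, a secreted Wnt-induced matricellular protein, was lower in Aldefluor+ cells by 1.90 with ID8 (adjusted p = 0.0132) and by 0.82 with DMSO, which did not pass, an interaction of -1.07 ± 0.402 (adjusted p = 0.62). GDA, guanine deaminase, read 2.34 to 3.14 in Aldefluor- and 2.22 to 3.31 in Aldefluor+ cells with DMSO. With ID8 it read 2.60 to 3.14 and 1.23 to 1.35, so the ID8-treated Aldefluor+ cells stood below all other groups, an interaction of -1.48 ± 0.396 (adjusted p = 0.509). LAYN, the hyaluronan receptor layilin, showed the reverse. It read 1.44 to 2.28 and 1.70 to 2.36 with DMSO, and 1.44 to 2.21 and 3.25 to 3.63 with ID8, an interaction of 1.50 ± 0.439 (adjusted p = 0.538). The LAYN interaction was 2.43, 0.12 and 1.97 in experiments 2, 3 and 4, so experiment 3 showed almost none. SPINK6, a kallikrein inhibitor, was higher in Aldefluor+ cells by 1.39 with DMSO and 1.88 with ID8, an interaction of 0.49 ± 0.46. The non-coding LINC01133 and the pseudogene USP32P2 were lower by 0.60 and 0.79 with DMSO and by 1.44 and 1.41 with ID8. Leaving out experiment 2, 3 or 4 cut the count called with ID8 to 5, 5 or 6, and leaving out the DMSO-treated Aldefluor+ array of experiment 4 cut it to 21. PAGE2B, SPINK6, LAYN, LINC01133 and TGFB2 lost their call in each of these fits, and CCN4, GDA and USP32P2 lost theirs without any 1 experiment.

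**Figure D4:**
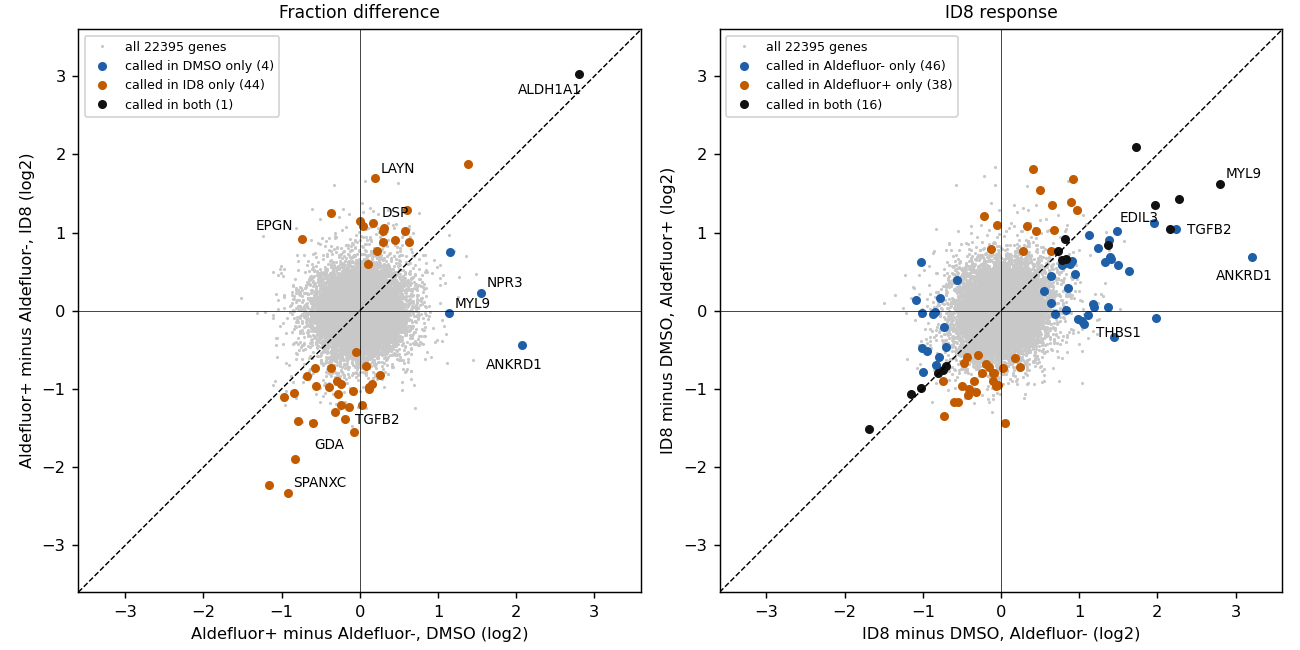
Left, Aldefluor+ minus Aldefluor- difference with DMSO (x) and with ID8 (y) for 22395 genes. Right, ID8 minus DMSO in Aldefluor- (x) and Aldefluor+ cells (y). All axes are log2. The vertical distance from the dashed diagonal is the interaction in both panels, and coloured points are genes called in 1 or both differences. ANKRD1 lies farthest from the diagonal, and ALDH1A1 lies beside it.

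ALDH1A1 is a retinaldehyde dehydrogenase whose activity the Aldefluor reagent reads. Sorting on that activity under both treatments by itself favours a fraction difference in this gene. ALDH1A1 kept its fraction difference with ID8. It read 1.98 to 2.45 in Aldefluor- and 4.84 to 5.17 in Aldefluor+ cells with DMSO, and 2.02 to 2.36 and 4.96 to 5.41 with ID8. Aldefluor+ cells were higher by 2.81 ± 0.171 with DMSO and 3.02 ± 0.171 with ID8 (adjusted p = 4.73e-07 and 1.51e-07). The interaction of 0.22 ± 0.242 (adjusted p = 0.914) was smaller than its error, and it turned to -0.04 without experiment 4. ALDH1A2 read at most 1.35 on every SUM159 array, and ALDH1A3 between 1.70 and 2.39. Their interactions were 0.10 ± 0.197 and 0.18 ± 0.288, and each turned below 0 with an experiment or array left out. Of 17 ALDH family genes, 11 lay above 0 with a median of 0.08, and 1, ALDH6A1 of mitochondrial valine breakdown, had an unadjusted p under 0.05 (-0.37 ± 0.168). Genes of retinoic acid metabolism and response had 15 of 19 below 0, a median of -0.16, and none with an unadjusted p under 0.05.

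The ID8 response itself was called for 54 genes in Aldefluor+ cells (0.241%), 24 higher (0.107%) and 30 lower (0.134%), and 62 in Aldefluor- cells (0.277%), 42 higher (0.188%) and 20 lower (0.0893%). These differences share no arrays, but their tests use the same spread per gene. The share of genes with the same sign in both was not computed over all genes. The counts of shared sign below are therefore description only. The 16 genes called in both, 16 of 54 and 16 of 62, all moved the same way, and their median absolute interaction was 0.15. Of 38 genes called in Aldefluor+ cells alone, 31 had the same sign in Aldefluor- cells. Of 46 called in Aldefluor- cells alone, 35 did, and 1 of them, ANKRD1, was called in the interaction. ITGB3, the integrin beta-3 subunit, was among the last: it rose by 1.40 in Aldefluor- cells (adjusted p = 0.00181) and was 0.67 higher in Aldefluor+ cells. Its interaction was -0.73 ± 0.256. CD24, a surface glycoprotein low on many breast cancer stem cells, fell by 1.01 in Aldefluor- cells (adjusted p = 0.00199) and stood 0.47 lower in Aldefluor+ cells, an interaction of 0.54 ± 0.191. Both calls in Aldefluor- cells were lost without experiment 4. Without experiment 2, 3 or 4 the calls were 3, 10 or 13 in Aldefluor+ cells and 21, 16 or 8 in Aldefluor- cells.

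Among proliferation genes, the G1/S and DNA replication list lay low in each experiment. Of 32 measured, 22 had an interaction below 0, 7 at an unadjusted p under 0.05, none was called, and the median was -0.19 (-0.24, -0.20 and -0.15). The lowest were CCNE1, cyclin E1, at -0.75 ± 0.335 and MCM2, a subunit of the replicative helicase, at -0.62 ± 0.273. The highest was E2F1, the S-phase transcription factor, at 0.71 ± 0.429. The list's median fraction difference was 0.19 with DMSO and 0.07 with ID8. Mitosis genes had a median of -0.06, with 19 of 30 below 0. Of 15 cyclin D and CDK inhibitor genes, 9 lay below 0, and CCND2 was the highest at 1.12 ± 0.251 (adjusted p = 0.305). Its SUM159 group means were only 1.37 to 2.07, where signal over background is small.

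No gene of the lipid synthesis lists was called. Of 18 genes of fatty acid synthesis and storage, 15 lay below 0, 4 of them at an unadjusted p under 0.05, with a median of -0.15. FASN, fatty acid synthase, had -0.54 ± 0.196 and ACLY, which makes cytosolic acetyl-CoA, had -0.47 ± 0.193. Of 18 cholesterol genes, 14 lay below 0, 1 of them at an unadjusted p under 0.05. Their median was -0.18, with 0.01, -0.36 and -0.33 in experiments 2, 3 and 4, and MVD, a mevalonate pathway enzyme, was the highest at 0.52 ± 0.311. Interferon response genes had 16 of 23 below 0 and a median of -0.23, with 3 lower and 2 higher at an unadjusted p under 0.05. IFITM3, an antiviral membrane protein, was the highest at 1.87 ± 0.766. With DMSO it read 4.57 to 5.34 in Aldefluor- and 3.44 to 4.91 in Aldefluor+ cells, which overlapped. With ID8 it read 3.77 to 4.67 and 4.94 to 5.37, so the fractions were apart. Of 18 NRF2 and glutathione genes, 12 lay below 0 with a median of -0.09, and the export pump gene ABCC2 was the lowest at -1.27 ± 0.441. The 12 DYRK and CLK kinase genes had a median of 0.09 and no unadjusted p under 0.05. These medians kept their sign under all 24 alternative settings for the YAP/TAZ, contractile, G1/S, interferon, cholesterol and fatty acid lists. So did those of other lists, among them NRF2, DYRK and CLK, and the respiratory chain with a median of only -0.04. A kept sign therefore does not set these lists apart, and the settings share most of their arrays. Settings that change only the error leave each median as it was, so the sign there was fixed in advance. The median ranged from -0.29 to -0.05 for YAP/TAZ and from -0.36 to -0.11 for the contractile list.

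**Figure D5:**
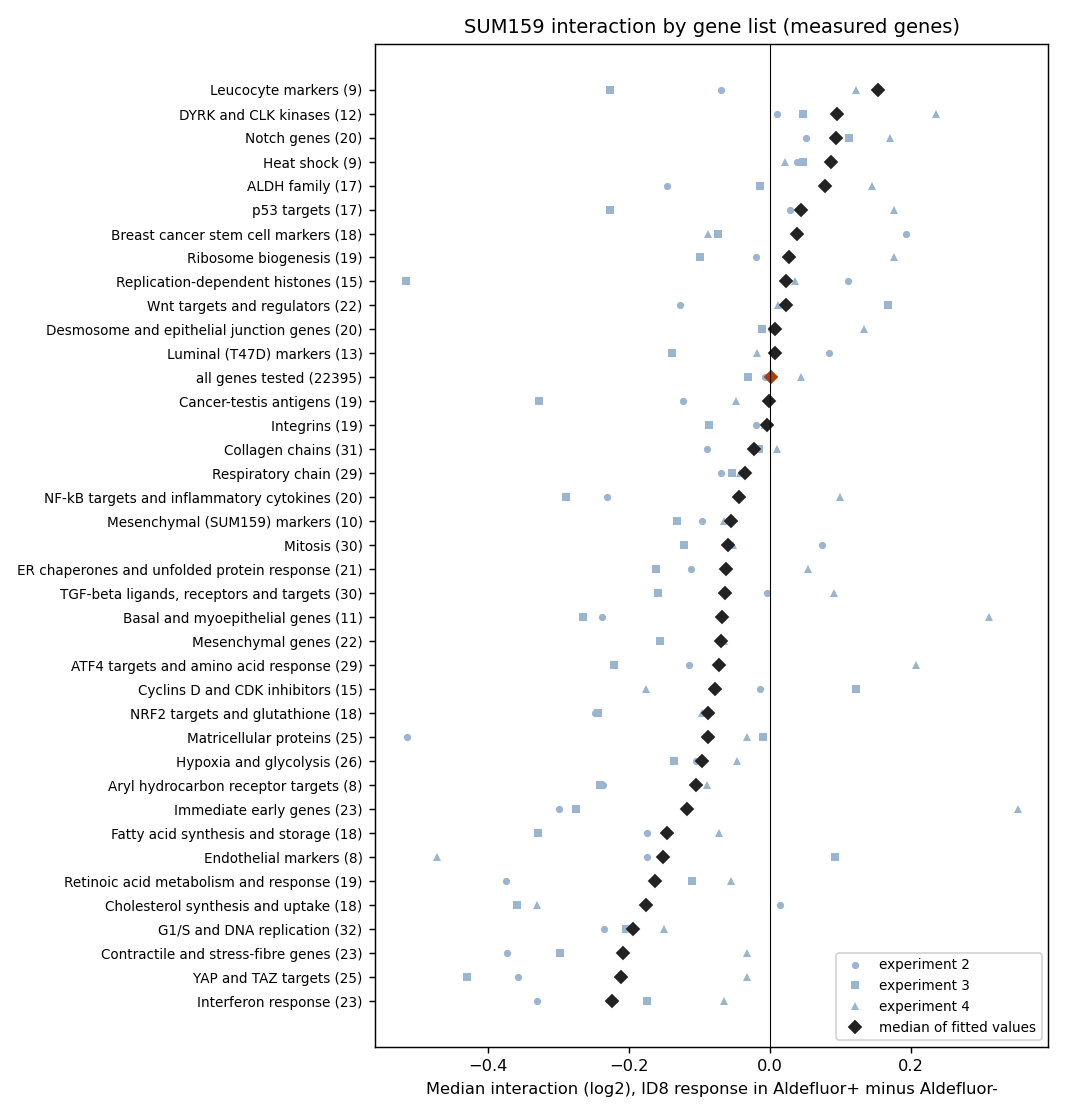
Median interaction (log2) of each of 38 gene lists and of all 22395 genes (orange), with the number of measured genes in brackets. Diamonds are medians of the fitted values and small blue markers are medians within experiments 2, 3 and 4. Interferon, YAP/TAZ and contractile genes have the lowest medians, -0.23, -0.21 and -0.21.

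In T47D the same contrast called no gene with limma, and 1328 genes (5.93%) had an unadjusted p under 0.05. ANKRD1 means were 3.15 and 3.29 in Aldefluor- and Aldefluor+ cells with DMSO and 3.11 and 3.45 with ID8. Thus no T47D group stood apart from the others at a low level. These levels are not set against those of SUM159, because no experiment held both lines and the batch adjustment may have moved them. The T47D interaction of ANKRD1 was 0.20 ± 0.264 (adjusted p = 0.967). The SUM159 interaction minus the T47D interaction was -2.72 ± 0.373 for ANKRD1 (adjusted p = 0.0422), the only gene called in that difference (0.00447%). That call was lost whenever any of experiments 2 to 7 was left out, at -3.01 to -2.24, and also without the DMSO-treated Aldefluor+ array of experiment 4 (adjusted p = 0.052). Of the 12 lower genes taken by the naming rule, 2 had the same sign in T47D, and 4 had an unadjusted limma p under 0.05 there. Of the 12 higher genes, 8 had the same sign in T47D and 0 had such a p. THBS1 had a T47D interaction of 0.60, MAP2 of 0.61 and RNF11 of 0.42, against -1.17, -0.89 and -0.97 in SUM159. SEMA3C had -0.42 in T47D, the same sign as in SUM159. The YAP/TAZ list's median was 0.11 in T47D and that of the G1/S list was -0.18, but neither median was tested against SUM159.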

How the data were processed

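Sorted cells gave RNA for Affymetrix Human Gene ST arrays. The authors deposited log2 values made with RMA and adjusted with ComBat for experimental and technical batches, per the submitters' processing notes. Neither versions nor ComBat's covariates were given in the sources used here. ComBat may have compressed differences within a line and between lines, by an amount these values do not give.

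Of 53617 probe sets, 23871 had 1 gene symbol in the platform's table, 1842 several and 27904 none. Symbols of 22569 were updated by gene number to RefSeq (GRCh38.p14). For the 632 genes with several probe sets the one with the highest mean was used, which left 22395 genes. Limma 3.58.1 (R 4.3.3; lmFit, eBayes) took all 24 arrays, 8 groups and a block for each experiment nested in its line (12 residual and 3.97 prior degrees of freedom), with Benjamini-Hochberg adjustment. Procedures were tested on simulated data. Arrays have no count depth, and their number limits the precision.

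The experiment numbers pair the arrays because the labels describe separate experiments. After group means were removed, r was -0.408 to -0.266 for the 18 same-experiment pairs and 0.0986 to 0.244 for the 36 other pairs. The SD over genes of an experiment's mean deviation was at most 0.0226, and 0.112 would follow from array spread. The block was therefore part of the reported fit, and both patterns show that experiment means had already been removed.

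Named genes were those called, up to 30; the 12 uncalled genes of smallest unadjusted p on each side of 0, with 1 sign in all 3 experiments and a mean of at least 2 in a SUM159 group; the 10 largest called fraction differences per treatment; ALDH1A1 to ALDH1A3; and, per list, the 2 highest and 2 lowest members. The contrast, the 38 gene lists and the rules were chosen with earlier results of these data known. Lists are described by counts and medians without a test. Alternatives covered the block, the arrays fitted, a low-signal filter at 2, quantile normalization, array weights, the prior, the choice of probe sets, and each experiment and array left out.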

Additional observations from a re-analysis of the deposited data

Results flagged for a closer look

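ANKRD1 was singled out because its ID8 response differed between the fractions by the test of that difference: the response in Aldefluor+ cells minus that in Aldefluor- cells was -2.52 (log2). It was also singled out because this value differed between the lines, by -2.72 (SUM159 minus T47D). Groups of 3 arrays were too small for a check of single outlying samples.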

How the results depend on the processing

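ANKRD1 kept its direction in every setting run for the interaction. In settings that change only the error, the genes tested or the choice of probe sets, its value was fixed at -2.52. The shared sign in those settings is therefore no added support. The number of genes called, 1 in the reported fit, was 1 with SUM159 arrays only, array weights, the mean of probe sets or all probe sets. It was 4 with the low-signal filter, 3 after quantile normalization, 5 with the trended, robust prior and 0 from 3 per-experiment values alone (the last has fewer degrees of freedom). Without 1 experiment it was 0 to 1, and without 1 array 1 to 2, the 2 (ANKRD1 and RIPOR2) without the DMSO-treated Aldefluor+ array of experiment 4.

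Without the replicate block, which counts degrees of freedom that the authors' adjustment had used, limma called 36 genes in the interaction, 17 higher and 19 lower, including ANKRD1 and all 24 uncalled genes named for their interaction. It then called 88 and 208 fraction differences with DMSO and ID8, 397 and 225 ID8 responses in Aldefluor+ and Aldefluor- cells, 4 genes in the T47D interaction and 21 in the difference between lines. Without 1 experiment these counts were 2 to 3, 5 to 6, 3 to 13, 8 to 21, 0 and 0.

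An alternative chosen after seeing the data left out the DMSO-treated Aldefluor+ array of experiment 4: 21 fraction differences were called with ID8, 0 genes in the difference between lines, and counts of 4, 37 and 60 in the fraction difference with DMSO and the ID8 responses in Aldefluor+ and Aldefluor- cells.

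Reversed values were all uncalled. With an experiment or array left out, the interaction ranged from -0.0221 to 0.391 for ALDH1A3, -0.0402 to 0.452 for ALDH1A1 and -0.0626 to 0.235 for ALDH1A2. The fraction difference with DMSO ranged from -0.597 to 0.346 for GDA (0.0235 without experiment 2, 0.271 without the DMSO-treated Aldefluor+ array of experiment 4) and from -0.174 to 0.574 for LAYN. That with ID8 ranged from -0.111 to 0.0233 for MYL9, and the T47D interaction of ANKRD1 from -0.279 to 0.492. The causes were not tested. The RNA per cell interaction was -0.23 to 0.02 with an experiment left out, against -0.12.

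Limits: with 3 experiments, genes below 2 on the log2 scale have little signal over background, and a p that missed the threshold does not show that fractions responded alike.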
